A study of Homo sapiens with 6 samples.

Results

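The genes described here build, crosslink, anchor and remodel the extracellular matrix. They are 46 genes chosen by function: fibrillar, beaded-filament and basement membrane collagens, laminins, adhesive and matricellular glycoproteins, microfibril proteins, proteoglycans, crosslinking oxidases, metalloproteinases and their inhibitors, the hyaluronan receptor CD44 and the adhesion receptors FLRT2 and FLRT3. The choice was made with earlier results of these data known. All probes annotated to these symbols were taken, which gave 77 probes for the 46 genes, out of 47315 probes for 20044 annotated genes. Of them, 44 probes for 33 genes passed the filter on dim probes and were tested, out of 21191 probes for 12134 genes.

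The cells were HEK-293, a long-established line derived from human embryonic kidney, whose RNA was hybridised to HumanHT-12 v4 BeadChips of Illumina. In 3 arrays the cells stably overexpressed circANRIL, a circular RNA made of exons 5, 6 and 7 of the long non-coding RNA ANRIL, cloned with flanking intron sequence into the pBI-CMV2 vector, and in the other 3 arrays they carried the pBI-CMV2 vector as a control. The vector also expresses a green fluorescent protein, and the methods describe co-transfection with a neomycin resistance vector and selection with G418 for the stable lines. The methods give 3 for the number of arrays in each group, call the samples cell lines, and state that 3 lines or more were made for each construct, but neither they nor the labels tie an array to a line. The p-values cover only the spread among the 6 arrays, and a difference between particular lines and an effect of circANRIL cannot be told apart.

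Basement membranes are sheets in which a network of type IV collagen is joined to a network of laminin trimers, each with an alpha, a beta and a gamma chain. The genes of type IV collagen lie in head-to-head pairs, COL4A1 with COL4A2 and COL4A5 with COL4A6, each pair read in opposite directions from a shared stretch of promoter. Fibrillar collagens and their crosslinking enzymes give interstitial matrix its strength, and matricellular glycoproteins such as tenascin-C change how cells adhere to it. In the kidney, collagen chains of both pairs are parts of basement membranes.

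Both collagen IV pairs had members that moved together, and TNC and CD44 had some of the largest differences among the genes described. The RefSeq sequence around their start sites is therefore shown, in the assembly GRCh38.p14, from 250 bases before the start to 50 bases after it and read along the gene. FLRT2, the most changed of the genes, has several listed start sites and is not shown. Of the 2 listed windows of COL4A6, the one nearer COL4A5 is shown, and the other held 1 GC box and 0 CCAAT boxes. Capitals mark matches, on either strand, to the GC box GGGCGG, the CCAAT box CCAAT, the TATA box TATAAA, the AP-1 site TGANTCA or the TEAD site GGAATG.
COL4A2, chr13:110307034-110307333, plus strand: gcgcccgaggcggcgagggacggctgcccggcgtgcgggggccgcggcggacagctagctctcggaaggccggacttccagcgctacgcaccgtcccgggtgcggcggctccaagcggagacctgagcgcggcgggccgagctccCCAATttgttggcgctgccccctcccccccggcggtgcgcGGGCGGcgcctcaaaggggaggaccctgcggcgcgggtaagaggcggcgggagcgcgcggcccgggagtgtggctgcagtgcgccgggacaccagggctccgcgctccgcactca
COL4A5, chrX:108439588-108439887, plus strand: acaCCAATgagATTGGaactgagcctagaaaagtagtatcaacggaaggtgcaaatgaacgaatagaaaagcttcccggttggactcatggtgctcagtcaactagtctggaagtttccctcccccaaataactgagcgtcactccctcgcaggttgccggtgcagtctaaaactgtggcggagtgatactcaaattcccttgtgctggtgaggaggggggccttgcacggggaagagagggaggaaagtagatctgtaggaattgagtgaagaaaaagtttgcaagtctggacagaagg
COL4A6, chrX:108439409-108439708, minus strand: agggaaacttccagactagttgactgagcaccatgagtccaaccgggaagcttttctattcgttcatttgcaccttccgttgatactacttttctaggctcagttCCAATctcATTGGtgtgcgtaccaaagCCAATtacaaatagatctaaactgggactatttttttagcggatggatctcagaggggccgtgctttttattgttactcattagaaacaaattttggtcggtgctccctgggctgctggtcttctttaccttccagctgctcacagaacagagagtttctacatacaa
TNC, chr9:115118108-115118407, minus strand: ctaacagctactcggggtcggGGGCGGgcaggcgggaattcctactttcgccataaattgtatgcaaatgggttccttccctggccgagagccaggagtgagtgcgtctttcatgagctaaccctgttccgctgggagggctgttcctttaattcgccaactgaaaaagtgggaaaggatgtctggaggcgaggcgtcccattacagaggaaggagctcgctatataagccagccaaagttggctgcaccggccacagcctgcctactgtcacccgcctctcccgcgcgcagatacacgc
CD44, chr11:35138921-35139220, plus strand: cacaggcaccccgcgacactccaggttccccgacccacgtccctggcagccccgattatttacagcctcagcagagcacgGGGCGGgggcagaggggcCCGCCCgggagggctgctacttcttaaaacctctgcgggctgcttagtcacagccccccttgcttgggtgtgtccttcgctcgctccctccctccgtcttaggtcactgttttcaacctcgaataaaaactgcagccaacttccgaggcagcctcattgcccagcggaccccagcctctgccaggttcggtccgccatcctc

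The start sites of COL4A1 and COL4A2 lie 127 bases apart, and their windows share 226 bases, so the COL4A2 window also holds most of that of COL4A1. The start site of the COL4A6 window shown and that of COL4A5 lie 380 bases apart and the windows share 121 bases. The COL4A2 window held 1 GC box and 1 CCAAT box, the COL4A5 window 2 CCAAT boxes and the COL4A6 window shown 3. In the TNC window 1 GC box was found and in the CD44 window 2. Among all 35116 windows of 300 bases, 45% held a GC box, 34.6% a CCAAT box, 11.5% a TATA box, 7.71% an AP-1 site and 14% a TEAD site. A match is a description of these letters only. Promoter windows were at hand for 33 of the 46 genes.

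Of the 33 genes tested, 8 had higher levels in the circANRIL lines, 9 had lower levels and 16 did not reach an adjusted p under 0.05 from limma. Among all 12134 genes, each represented by its probe with the highest mean level, 11.4% were higher and 9.26% lower, 20.7% in either direction, and among all 21191 probes 9.27% were higher and 8.44% lower, 17.7% in either direction. With each array scaled to its median over all probes, an alternative chosen after seeing the data, 5 of the genes were higher and 9 lower, against 8.13% and 15.6% of all genes, and over all probes the higher calls made up 32.3% of the calls in place of 52.4%. The median log2 fold change of the 33 genes was 0.07, and that of all genes −0.02. Differences of more than 2-fold were found in 3 genes that were higher and in 7 that were lower, where 4.33% of all genes were higher by that much and 1.52% lower. The 2 groups of arrays did not overlap in 19 of the 33, and in 39.3% of all genes. As the genes were chosen with earlier results known, the shares of all genes stand beside these counts as description only. The same holds for the counts by role below. Of the lower genes 2, COL9A3 and THBS2, were detected on no circANRIL array and entered the test only through the vector control arrays, so they had to differ.

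**Figure D1:**
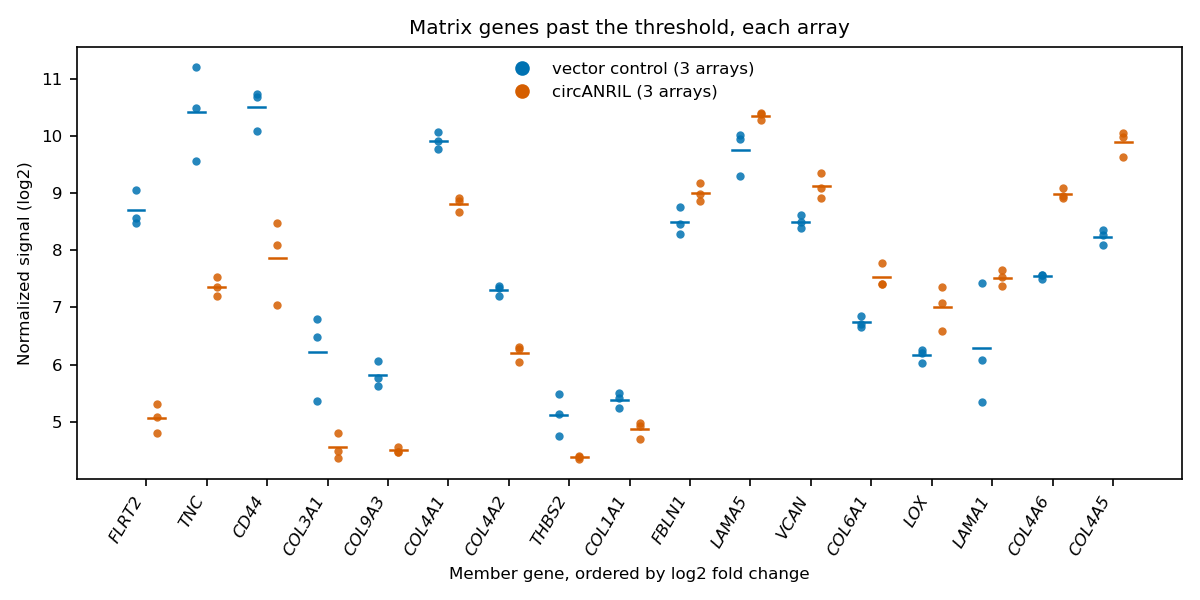
Normalized log2 signal on each array (y axis) of the 17 matrix genes that passed an adjusted p under 0.05, ordered by log2 fold change (x axis); points are arrays, 3 for each group, and horizontal lines are group means. The groups lie apart for every gene shown except LAMA1, where vector control array 1, at 7.43, lies within the range of the circANRIL arrays.

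Type IV collagen chains moved in opposite directions by pair. COL4A1 and COL4A2, which encode the chains found in nearly all basement membranes, were each 2.15-fold lower in the circANRIL lines, while COL4A5 and COL4A6, whose chains are restricted to fewer tissues, were 3.15-fold and 2.72-fold higher. The log2 signal of COL4A1 was 10.07, 9.92 and 9.78 on the vector control arrays and 8.91, 8.68 and 8.87 on the circANRIL arrays. COL4A2 had 7.35, 7.20 and 7.38 against 6.04, 6.26 and 6.31. For both genes every circANRIL array lay below every vector control array, and the distance between groups was several times the spread within them. The log2 fold change was −1.10 for COL4A1 (standard error 0.15, adjusted p = 0.000105) and −1.10 for COL4A2 (standard error 0.19, adjusted p = 0.000847).

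The other pair rose in the circANRIL lines. COL4A5 had a log2 signal of 8.10, 8.35 and 8.27 on the vector control arrays and 9.64, 9.99 and 10.05 on the circANRIL arrays, a log2 fold change of 1.65 with a standard error of 0.16 (adjusted p = 3.44e-06). A second COL4A5 probe gave 5.41, 5.39 and 5.92 against 7.19, 7.42 and 7.03, a log2 fold change of 1.64. COL4A6 had 7.50, 7.57 and 7.57 on the vector control arrays and 8.92, 8.96 and 9.09 on the circANRIL arrays, a log2 fold change of 1.44 with a standard error of 0.16 (adjusted p = 1.31e-05). Its vector control values nearly coincided, and the groups lay far apart for both genes. The other probes of COL4A6 were not detected on any array. The 4 calls held under each alternative that was run. In the assembly, 676 pairs of genes with start sites within 1000 bases of each other had both genes tested; in 37 pairs both genes passed, and in 31 pairs, or 4.59% of the 676, both passed in 1 direction.

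Genes next to both pairs moved in the direction of the pair. COL4A1 and COL4A2 lie on chromosome 13, where 11 of 223 genes were higher and 70 lower, with a median log2 fold change of −0.29. COL4A5 and COL4A6 lie on chromosome X, where 154 of 435 genes were higher and 12 lower, with a median of 0.28. On all other chromosomes 1217 of 11476 genes were higher and 1042 lower, with a median of −0.02. Within 2 Mb of COL4A1 and COL4A2, a distance chosen after the values were seen, 6 of 8 other genes tested were lower and 0 were higher, with a median of −0.82. They ran from −2.27 for IRS2, an adaptor of the insulin receptor, to 0.15 for RAB20, a small GTPase, which did not pass. The inhibitor of growth protein ING1 had −0.92 and the guanine nucleotide exchange factor ARHGEF7 −0.74. Within 2 Mb of COL4A5 and COL4A6, 14 of 17 other genes were higher and 0 were lower, with a median of 1.27. The glucocorticoid-induced gene TSC22D3 had 6.73, the insulin receptor substrate IRS4 2.42 with detection on 1 of 3 vector control arrays, and the fatty acyl-CoA ligase ACSL4 1.67. FRMPD3 and AMMECR1, at 0.00 and 0.02, did not pass. The part of these neighbourhoods in the collagen values was not tested. TIMP1, which also lies on X, had a log2 fold change of 0.09.

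**Figure D2:**
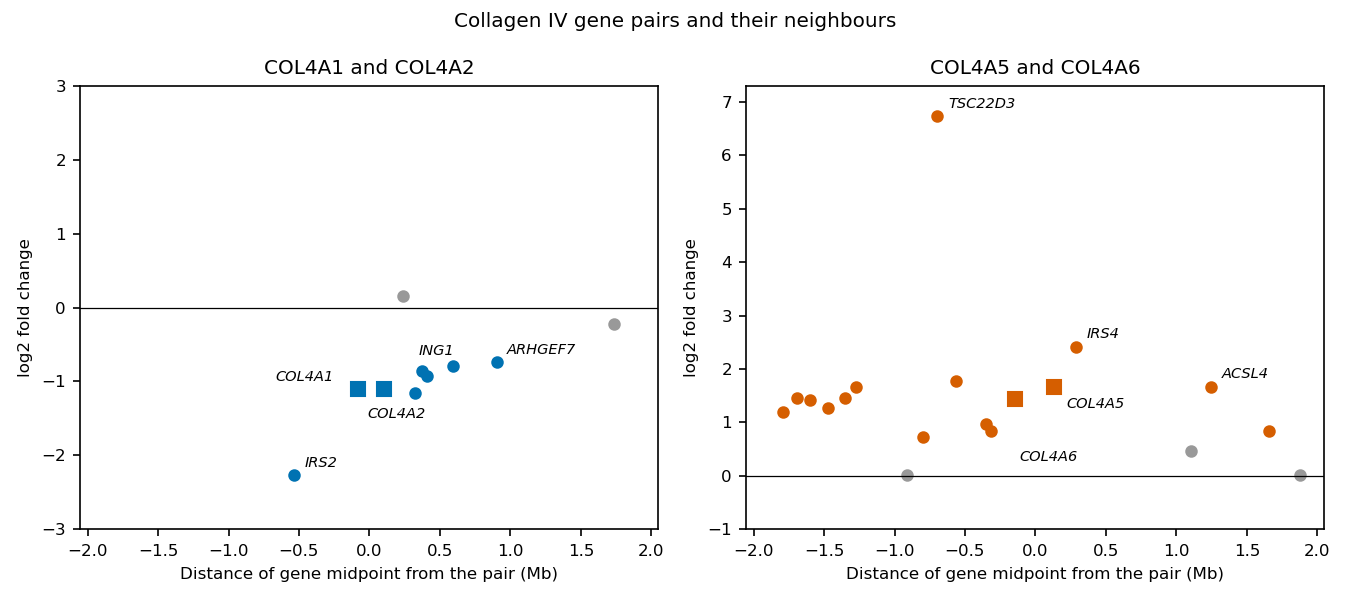
Log2 fold change, circANRIL over vector control (y axes, which differ between the panels), of genes within 2 Mb of each collagen IV pair against the distance of the gene's midpoint from the pair in Mb (x axis). Squares are the collagen genes and circles their neighbours, blue where lower, orange where higher and grey where the adjusted p was 0.05 or more: 6 of 8 neighbours are lower on the left and 14 of 17 higher on the right.

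Of the 6 laminin genes among the 46, LAMA1 and LAMA5 were higher and 4 did not pass; LAMC3 and LAMB3, which lie outside the 46, were lower and are given with the other matrix genes. Of the 12 basement membrane genes tested, which include the 4 collagens above, 4 were higher, 2 lower and 6 did not pass. Of all genes, 11.4% were higher and 9.26% lower. LAMA5, which encodes the alpha chain of laminins in mature epithelial basement membranes, had a log2 signal of 10.02, 9.95 and 9.31 on the vector control arrays and 10.29, 10.40 and 10.39 on the circANRIL arrays. The log2 fold change was 0.60 (standard error 0.17, adjusted p = 0.0245), and it was 0.38 (adjusted p = 0.105) without vector control replicate 3, the lowest array. Its call was also lost with each array scaled to its median over all probes (0.41, adjusted p = 0.0865) and without each of the circANRIL replicates in turn (adjusted p = 0.0505 to 0.0932). Signals floored at 16 (adjusted p = 0.1525) and a t-test on each probe (adjusted p = 0.2134) ended the call as well.

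LAMA1, the alpha chain of the laminin of early embryonic basement membranes, had 7.43, 6.08 and 5.34 on the vector control arrays and 7.53, 7.38 and 7.65 on the circANRIL arrays. The vector control arrays spread over about 2 log2 units and their highest value overlapped the circANRIL values. The log2 fold change was 1.24 (standard error 0.36, adjusted p = 0.0237), and a second probe gave 0.47 (adjusted p = 0.192). Without vector control replicate 3 the first probe gave 0.76 (adjusted p = 0.0886), and without vector control replicate 1 it gave 1.81 (adjusted p = 0.00011). Leaving out vector control replicate 2 or any circANRIL replicate also ended the call, with an adjusted p of 0.059 to 0.0999. So did signals floored at 16 (adjusted p = 0.2487) and a t-test on each probe (adjusted p = 0.2996).

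LAMB1, a beta chain shared by many laminins, had 8.81, 9.36 and 8.55 on the vector control arrays and 9.33, 9.56 and 9.49 on the circANRIL arrays, which overlapped and did not pass (log2 fold change 0.55, adjusted p = 0.0542). Its other probe had 8.52, 8.77 and 7.87 against 8.87, 9.0 and 9.52 and passed, with a log2 fold change of 0.75 (adjusted p = 0.0293). Without vector control replicate 2 the first probe passed as well (0.78, adjusted p = 0.00712). The alpha chain gene LAMA4 did not pass, at 0.56 on the log2 scale (adjusted p = 0.159), but passed without vector control replicate 2 (0.94, adjusted p = 0.00783). Its other probe gave 0.09.

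LAMC1, the gamma chain of most laminins, had a log2 signal of 10.45, 10.95 and 10.42 on the vector control arrays and 10.65, 10.50 and 10.68 on the circANRIL arrays. The groups overlapped, and the log2 fold change was 0.01 (95% interval −0.32 to 0.33). The beta chain LAMB2 had 0.03, COL18A1, the source of endostatin, 0.07 and the heparan sulphate proteoglycan AGRN −0.27, none of which passed. For LAMC1, LAMB2 and COL18A1 the sign turned when each array was scaled to its median over all probes. HSPG2, which encodes perlecan, was not detected on any array.

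**Figure D3:**
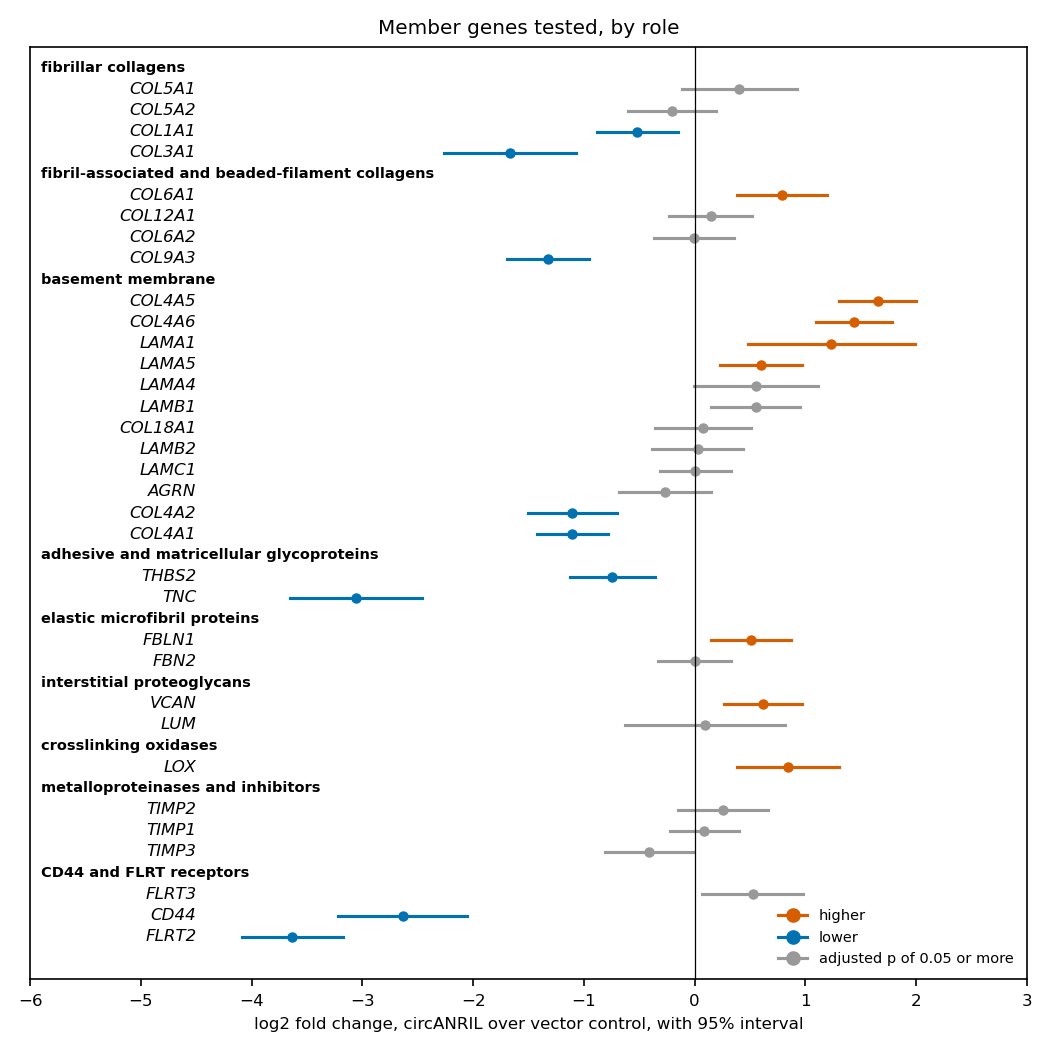
Log2 fold change, circANRIL over vector control, with its 95% interval from limma (x axis), of the 33 matrix genes tested, grouped by role (y axis). FLRT2, TNC and CD44 have the lowest values, at −3.63, −3.06 and −2.63, and COL4A5 and COL4A6 the highest, at 1.65 and 1.44; orange and blue mark genes that passed and grey those with an adjusted p of 0.05 or more.

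Of the receptors, CD44 and FLRT2 fell in the circANRIL lines. FLRT2, a transmembrane protein that binds latrophilin and UNC5 receptors of neighbouring cells, had a log2 signal of 8.57, 8.48 and 9.05 on the vector control arrays and 5.31, 5.09 and 4.81 on the circANRIL arrays. It was 12.4-fold lower (log2 fold change −3.63, standard error 0.22, adjusted p = 5.98e-09). The distance between the groups was more than 3 log2 units, with every array of each group detected. The circANRIL values lay near the lowest detected signals of those arrays, 4.65, 4.66 and 4.69. The call held under each alternative in which the gene could be tested, with log2 fold changes from −4.39 to −2.19. The size of the difference thus depended on the processing. In the authors' normalized table, from which background is not subtracted, the log2 fold change was −2.19. FLRT3, its relative, had 5.94, 5.85 and 5.45 on the vector control arrays and 6.24, 6.0 and 6.57 on the circANRIL arrays, which did not overlap and did not pass (0.53, adjusted p = 0.102).

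CD44, the main cell surface receptor for hyaluronan, had 10.09, 10.69 and 10.74 on the vector control arrays and 7.05, 8.09 and 8.47 on the circANRIL arrays. Each circANRIL array lay well below the lowest vector control array, with circANRIL array 1 the lowest. The gene was 6.21-fold lower (log2 fold change −2.63, standard error 0.28, adjusted p = 5.83e-06). A second CD44 probe had 6.76, 7.36 and 7.72 against 4.92, 5.34 and 5.30, a log2 fold change of −2.09. The remaining tested probe had 4.96, 5.31 and 5.47 on the vector control arrays, was detected on no circANRIL array and was at least 1.49-fold lower, a bound set by the dimmest detected probe on each array. That probe entered the test only through the vector control arrays, so it had to differ. The methods name a t-test for comparing groups in general, and selected array transcripts by fold change. With that t-test run on each probe and Benjamini-Hochberg adjustment, the CD44 value had an adjusted p of 0.0823.

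Of the adhesive and matricellular glycoproteins, 2 of 5 genes were tested and both were lower, against 9.26% of all genes. Of the 2, THBS2 was detected on no circANRIL array and had to differ. TNC, which encodes the antiadhesive glycoprotein tenascin-C, had a log2 signal of 9.56, 11.22 and 10.49 on the vector control arrays and 7.20, 7.36 and 7.53 on the circANRIL arrays. The vector control arrays spread widely, yet the lowest of them lay about 2 log2 units above the highest circANRIL array. The difference was 8.33-fold (log2 fold change −3.06, standard error 0.28, adjusted p = 1.57e-06). Its other probe had 8.99, 10.57 and 9.70 against 6.82, 6.94 and 7.60, a log2 fold change of −2.63 (adjusted p = 1.43e-05). With the methods' t-test the adjusted p was 0.0717 for TNC.

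THBS2, a thrombospondin that restrains collagen fibril assembly and angiogenesis, had 4.75, 5.48 and 5.13 on the vector control arrays and was not detected on the circANRIL arrays, with measured values of 4.39, 4.39 and 4.35. It was at least 1.37-fold lower (adjusted p = 0.00982). The call was lost with signals floored at 16 (−0.37, adjusted p = 0.36) and by the methods' t-test after Benjamini-Hochberg adjustment (adjusted p = 0.143). FN1, SPARC and THBS1, which encode fibronectin, osteonectin and thrombospondin-1, were not detected on any array. In bulk samples, fewer cells that express a gene and less RNA per cell cannot be told apart.

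**Figure D4:**
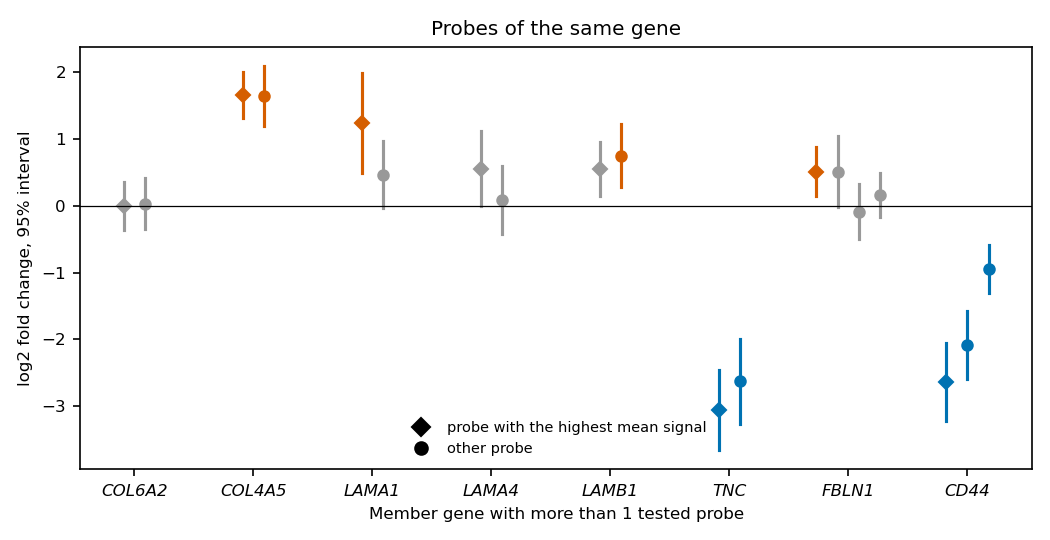
Log2 fold change, circANRIL over vector control, with its 95% interval (y axis), of each tested probe of the 8 matrix genes with more than 1 (x axis). Diamonds are the probes with the highest mean signal and circles the other probes, orange where higher, blue where lower and grey where the adjusted p was 0.05 or more: the probes of COL4A5, TNC and CD44 all passed in the same direction, while only 1 probe of LAMA1, LAMB1 and FBLN1 did. Of the CD44 probes 1 was detected on no circANRIL array and had to differ.

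Of 6 fibrillar collagen genes, 4 were tested and 2 of these were lower, against 9.26% of all genes. COL3A1, which encodes the chain of type III collagen, had a log2 signal of 5.37, 6.80 and 6.48 on the vector control arrays and 4.79, 4.49 and 4.36 on the circANRIL arrays, of which 1 was a detection. The groups lay apart, by a small distance for vector control array 1. It was 3.18-fold lower (log2 fold change −1.67, standard error 0.28, adjusted p = 0.000676), and it did not pass with the background floored at 16 (adjusted p = 0.108) or with the methods' t-test (adjusted p = 0.136). COL1A1, the alpha 1 chain of type I collagen, had 5.23, 5.50 and 5.42 against 4.98, 4.93 and 4.69, a log2 fold change of −0.52 with a standard error of 0.17 (adjusted p = 0.048). Its call was lost in most alternatives, with an adjusted p of 0.0691 without circANRIL replicate 1, 0.107 without circANRIL replicate 2, 0.18 without circANRIL replicate 3, 0.125 without vector control replicate 2 and 0.103 without vector control replicate 3.

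COL5A1, a chain of the type V collagen that starts fibrils, had 6.48, 6.45 and 5.68 on the vector control arrays and 6.60, 6.28 and 6.94 on the circANRIL arrays, which overlapped (log2 fold change 0.40, adjusted p = 0.277). COL5A2 had −0.21 (adjusted p = 0.488), with detection on 3 vector control arrays and 1 circANRIL array. COL1A2 was detected on 1 array in all and COL11A1 on none, and neither was tested.

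Of the 5 fibril-associated and beaded-filament collagens, 4 were tested, 1 was higher and 1 lower, against 11.4% and 9.26% of all genes. COL6A1, a chain of the type VI collagen that forms beaded filaments around cells, had 6.66, 6.86 and 6.71 on the vector control arrays and 7.42, 7.77 and 7.41 on the circANRIL arrays. The lowest circANRIL array lay above the highest vector control array. The rise was 1.73-fold (log2 fold change 0.79, standard error 0.19, adjusted p = 0.00913), and without circANRIL replicate 2 it was 0.68 on the log2 scale (adjusted p = 0.0717). With the methods' t-test the adjusted p was 0.0764 for COL6A1. COL6A2, whose chain assembles with that of COL6A1, had −0.00 and 0.03 by its 2 tested probes, detected on 3 arrays each.

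COL9A3, a chain of a fibril-associated collagen best known from cartilage, had 6.06, 5.62 and 5.77 on the vector control arrays and was detected on no circANRIL array, with measured values of 4.48, 4.46 and 4.55. It was at least 2.22-fold lower in the main processing (adjusted p = 7.48e-05), and it had to differ. Over the alternatives the log2 fold change ran from −1.36 to −0.46. The value of −0.46 came from the authors' normalized table, from which background is not subtracted, so the bound does not hold there. The log2 fold change of the fibril-associated COL12A1 was 0.15 (adjusted p = 0.619), with detection on 2 arrays of each group. COL6A3 was not tested, and each of its probes was detected on 1 array.

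The remaining matrix genes that passed were modestly higher in the circANRIL lines. LOX, which crosslinks collagen and elastin, had a log2 signal of 6.26, 6.20 and 6.02 on the vector control arrays and 6.59, 7.36 and 7.07 on the circANRIL arrays. The log2 fold change was 0.84 (standard error 0.22, adjusted p = 0.0139), and it did not pass without circANRIL replicate 2 (0.67, adjusted p = 0.0967) or 3 (0.81, adjusted p = 0.0566). Nor did it pass with signals floored at 16 (adjusted p = 0.0879) or with the methods' t-test (adjusted p = 0.1396). The proteoglycan VCAN, a large hyaluronan-binding molecule, had 8.39, 8.62 and 8.49 against 9.36, 8.91 and 9.09. Its groups lay apart, with a log2 fold change of 0.62 with a standard error of 0.17 (adjusted p = 0.0178). Without circANRIL replicate 1 it was 0.50 (adjusted p = 0.0881), and with each array scaled to its median over all probes it was 0.43 (adjusted p = 0.112). The VCAN call was also lost with signals floored at 16 (adjusted p = 0.0639) and with the methods' t-test (adjusted p = 0.1145).

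FBLN1, a fibulin of elastic fibres and basement membranes, had 8.75, 8.46 and 8.29 on the vector control arrays and 8.87, 8.99 and 9.17 on the circANRIL arrays. The groups lay apart by a small distance, and the value passed narrowly (0.51, standard error 0.17, adjusted p = 0.0496). Its 3 other tested probes had log2 fold changes of 0.51, −0.09 and 0.16 and did not pass. The call was lost without any one of the circANRIL replicates or without vector control replicate 2 or 3, with an adjusted p of 0.0634 to 0.174. FBN2, a fibrillin of developing microfibrils, had 9.44, 9.29 and 9.09 against 9.36, 9.15 and 9.32, a log2 fold change of 0.00 (95% interval −0.33 to 0.33). LUM, a small leucine-rich proteoglycan that spaces collagen fibrils, had 0.10 (adjusted p = 0.883), with detection on 1 vector control array and 2 circANRIL arrays.

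No inhibitor of metalloproteinases passed, of the 3 tested. TIMP1 had a log2 signal of 10.03, 10.38 and 10.50 on the vector control arrays and 10.45, 10.38 and 10.34 on the circANRIL arrays, values that lay within 1 range (log2 fold change 0.09, 95% interval −0.22 to 0.40). TIMP2 had 0.26 (adjusted p = 0.378). TIMP3, the inhibitor that binds to matrix, had −0.41 (adjusted p = 0.147), with groups that did not overlap. The 16 genes that did not pass ran from −0.41 to 0.56. With 3 arrays in a group their number limits the precision.

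In all, 26 of the 46 genes were detected on all 6 arrays by at least 1 probe, 10 on some arrays and 10 on none. The 10 without detection were FN1, SPARC, THBS1, FBN1, COL11A1, HSPG2, BGN, LOXL2, MMP2 and MMP14. These encode abundant products of fibroblast matrix, such as fibronectin, biglycan and fibrillin-1, and the gelatinase and membrane-type metalloproteinases. With COL1A2, COL6A3 and DCN, which encodes decorin, they make up the 13 genes that were not tested. Their mean log2 signals ran close to the background of the arrays in both groups, so a difference in them was not detectable here.

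Other genes of matrix biology were read from 10 lists of functions, also chosen with earlier results of these data known. Of 247 genes on them 238 had a probe and 143 were tested, with 32 (22.4%) higher, 13 (9.09%) lower and 98 that did not pass, and with a median log2 fold change of 0.18. Of all genes 11.4% were higher and 9.26% lower, shares that stand beside each list below as description only. Of the 45 that passed, 5 were detected on no vector control array and 1 on no circANRIL array, so these 6 entered the test only through the group where they were higher and had to differ. Among 12 genes of hyaluronan and CD44 partners, 3 were lower and 0 higher. HAS2, a hyaluronan synthase, had 6.29, 9.25 and 7.25 on the vector control arrays and 5.67, 4.64 and 5.55 on the circANRIL arrays, a log2 fold change of −2.31 with a standard error of 0.49 (adjusted p = 0.00421) with detection on 2 circANRIL arrays, and −0.58 (adjusted p = 0.12) by its other tested probe. UGDH, which makes the UDP-glucuronic acid that hyaluronan is built from, had −0.71 (adjusted p = 0.00757). The third was CEMIP, a hyaluronan-degrading protein named after its value was seen. It was at least 1.03-fold lower, but was detected on no circANRIL array, so it had to differ.

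Among 9 partners of the FLRT proteins, 3 were lower and 0 higher, against 9.26% and 11.4% of all genes. The latrophilin ADGRL3, a receptor for FLRT proteins, had 6.75, 7.16 and 7.11 on the vector control arrays and 5.93, 5.72 and 5.66 on the circANRIL arrays, a log2 fold change of −1.24 (adjusted p = 0.000493). The growth factor receptor FGFR3 had −1.22 (adjusted p = 7.94e-05), and −0.08 by its other probe. FGFR1, named after its value was seen, had −0.87 (adjusted p = 0.008).

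Of 14 integrins and matrix receptors tested, 4 were higher and 0 lower, against 11.4% and 9.26% of all genes. DDR2, a receptor tyrosine kinase for fibrillar collagen, had 4.74, 4.90 and 4.49 on the vector control arrays, with detection on 2 of them, and 8.15, 8.64 and 8.60 on the circANRIL arrays. Its log2 fold change was 3.76 (adjusted p = 2.93e-09), and its other probe was not detected. ITGA8, an integrin chain of kidney development, was at least 1.5-fold higher, with no detection on a vector control array, so it had to differ.

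Among 12 other proteoglycan genes tested, 2 were higher and 3 lower, all 5 of them of the cell surface. Of all genes, 11.4% were higher and 9.26% lower. The glypicans GPC3 and GPC4, neighbours on chromosome X, rose by 2.01 and 0.89 on the log2 scale, and GPC6, on chromosome 13, had −1.12, with −0.45 (adjusted p = 0.137) by its other probe. The syndecan SDC2 had −1.0.

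Among 11 other basement membrane genes, 4 were higher and 2 lower, against 11.4% and 9.26% of all genes. PXDN, the peroxidase that crosslinks type IV collagen, had 7.32, 5.26 and 5.03 on the vector control arrays and 7.88, 7.29 and 8.13 on the circANRIL arrays, which overlapped at vector control array 1 (log2 fold change 1.90, adjusted p = 0.00523). The laminin-binding NID1 rose by 0.86, with detection on 1 vector control array. The laminin chains LAMC3 and LAMB3 had −1.05 and −0.75. Of 11 other collagens 1, COL4A4, was higher, at least 1.85-fold. It was detected on no vector control array, so it had to differ. COL2A1, of cartilage fibrils, was lower with −1.03.

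Genes of collagen biosynthesis gave 5 higher and 0 lower of 23, such as the lysyl hydroxylase PLOD3 with 0.89 and the procollagen protease enhancer PCOLCE2 with 0.66. Of 15 other glycoproteins and microfibril genes 8 were higher and 0 lower, led by the fibulin EFEMP1 with 1.97 and the thrombospondin THBS3 with 1.85. Matrix proteases and their inhibitors had 5 higher and 1 lower of 21. The membrane-type protease MMP16 was at least 2.22-fold higher, but was detected on no vector control array, so it had to differ. The plasminogen activator PLAT rose by 1.74 on the log2 scale and MMP23B had −1.40. Of 15 genes of TGF-beta signalling 3 were higher and 0 lower, among them the receptor decoy BAMBI with 1.15 and LTBP2, which binds to microfibrils, with 0.62.

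**Figure D5:**
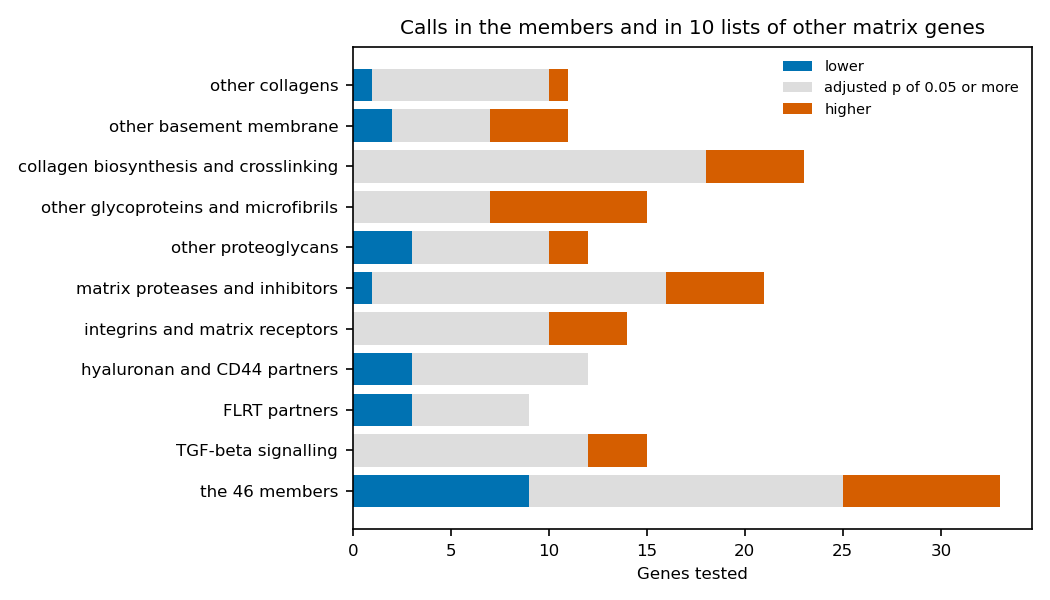
Number of genes tested (x axis) in the 46 matrix genes and in 10 lists of other matrix genes (y axis), divided into lower (blue), adjusted p of 0.05 or more (grey) and higher (orange). The lists of glycoproteins, collagen biosynthesis, integrins and TGF-beta signalling hold 0 lower genes, and those of hyaluronan and CD44 partners and of FLRT partners hold 0 higher genes. Of all genes tested, 11.4% were higher and 9.26% lower.

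The identity of the cells was read from marker genes. VIM, EYA1 and NEFL, of 5 genes known from HEK-293 with a probe, were detected on all 6 arrays, NEFL higher in the circANRIL lines, while PAX2 was detected on none and LHX1 on 2 vector control arrays. The summed signal of these 5 genes was 6321 to 6695 on the circANRIL arrays and 4819 to 5315 on the vector control arrays. Of the 5 fibroblast markers, PDGFRB, THY1 and FAP were detected on no array. S100A4 was detected on the 3 vector control arrays and on no circANRIL array, at least 1.49-fold lower (adjusted p = 0.00979). It entered the test only through the vector control arrays, so it had to differ. PDGFRA was detected on the 3 circANRIL arrays and on 1 vector control array, with means of 5.03 and 4.58 and no overlap between groups (log2 fold change 0.45, adjusted p = 0.0601), and the summed signal of the 5 fibroblast markers was 106 to 120 on the circANRIL arrays and 113 to 132 on the vector control arrays. For smooth muscle MYH11, CNN1 and DES were detected on none, and ACTA2 was higher in the circANRIL lines (9.37 against 8.64), with a summed signal of 699 to 852 against 454 to 527. The 5 endothelial markers were detected on no array by their brightest probe, with a summed signal of 97.9 to 102 against 97.3 to 102. PTPRC and CD3E, of the 4 leukocyte markers with a probe, were detected on no array, while CD14 and CD68 were detected on all 6. CD14 did not pass (5.51 against 5.63, adjusted p = 0.70), and CD68 was higher by its brightest probe and lower by another. The summed signal of the leukocyte markers was 549 to 791 against 475 to 514. The part of S100A4, PDGFRA and of the HEK-293, smooth muscle and leukocyte markers in the matrix values was not tested. Neither of the 2 probes of the ANRIL gene was tested, as 1 was detected on 1 array of each group and the other on none, and their position relative to the circANRIL exons is not given, so overexpression was not measured here.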

How the data were processed

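RNA of 3 arrays of circANRIL-overexpressing and 3 arrays of vector control HEK-293 cells was hybridised to Illumina HumanHT-12 v4 BeadChips. The authors preprocessed bead-level data in GenomeStudio (version 2011.1, per the submitters' processing notes), and quantile normalization and background reduction in the same software are stated. The first deposited table holds background-subtracted intensity values on a linear scale, 11666 to 12397 of them negative on an array, with detection p-values that were deposited beside them and used as they are. A second deposited table holds the authors' normalized intensity values and served as an alternative. No batch, slide or date is named.

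The neqc function (offset 16) of limma 3.58.1 under R 4.3.3 corrected the background from the detection p-values, then quantile-normalized and took log2. The 21191 of 47315 probes that at least 3 of 6 arrays detected at p under 0.05 were kept. An array detected between 43.4% and 46.8% of probes. Pearson's r across probes was 0.980 to 0.990 within groups and 0.946 to 0.968 between groups, and no pair of arrays was identical. Groups were compared by limma (lmFit, then eBayes with trend), and Benjamini-Hochberg adjustment ran over all kept probes at a threshold of 0.05, which called 3753 probes, or 17.7%. The smallest p that an exact permutation test could give for 2 groups of 3 is 0.1.

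Of 30118 annotated probes 30110 had 1 symbol, and 30071 of these matched the RefSeq gene table of GRCh38.p14 by gene ID. The kept probe brightest on average stood for a gene. Where no array of a group detected a probe, the fold is a bound, taken from the dimmest detected probe on each array. It holds for the main processing only. Values on every array are given for genes that passed by any probe and for 1 gene of each role, and of each other list up to 2 called genes in each direction with the smallest adjusted p are named. The genes and lists were chosen with earlier results of these data known. The fit was tested on simulated arrays.

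The alternatives were 2 other background corrections, median scaling over detected or over all probes, 2 other filters, the authors' table, the methods' t-test, another choice of probe, the replicate number as a block and leaving out each array. The methods state that t-test for comparing groups in general. Its use on each probe with Benjamini-Hochberg adjustment is not the study's own array analysis, which selected transcripts by fold change.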

Additional observations from a re-analysis of the deposited data

How the results depend on the processing

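Under 16 alternatives, the calls of COL4A1, COL4A2, COL4A5, COL4A6, COL9A3 and FLRT2 held wherever the gene could be tested, 6 of 17 called genes. FLRT2 could be tested in 15 of the 16 and COL9A3 in 12. As COL9A3 was detected on no circANRIL array, it had to differ, and its held call is no sign of robustness. Of 261 values of the called genes under alternatives, 208 kept the call, 53 lost it and 0 changed sign. The losses came with an array left out in 23, with the methods' t-test in 11 and with signals floored at 16 in 7. LAMB1 and LAMA4 passed in 4 of the 246 values of genes not called. COL9A3 and THBS2 gave no value without a vector control array, since the filter then removed them. The 3753 probes called became 1529 with signals floored at 16, 484 with the methods' t-test and 1968 to 3245 with an array left out, lowest without circANRIL replicate 2 and then, at 1998, without circANRIL replicate 3. The 8 higher matrix genes became 3 with floored signals (4.94% of all genes were then higher), 5 with median scaling over all probes, 2 with the methods' t-test (1.76% of all genes) and 3 to 8 with an array left out (4, 3 and 4 without circANRIL replicates 1, 2 and 3, and 5 without vector control replicate 3). The 9 lower became 4 among probes detected at 0.01 on all arrays, where fewer genes were tested, and 4 with the t-test. With an array left out they became 6 to 8 (6 without vector control replicate 2 or 3). Of all genes, 9.77% were lower among probes detected at 0.01, 1.05% with the t-test and 4.85% to 7.56% with an array left out. With an array left out 6.65% to 11.1% of all genes were higher, and with median scaling over all probes 8.13%. Of the other matrix genes, the 32 higher became 16 with floored signals, 16 among probes detected at 0.01, 4 with the t-test and 16 to 35 with an array left out (17 and 16 without circANRIL replicates 2 and 3, and 20 without vector control replicate 3). Their 13 lower became 5, 7 and 1 under the same 3 settings and 7 to 12 with an array left out (7 without circANRIL replicate 2). With floored signals 3.71% of all genes were lower, and among probes detected at 0.01 11% were higher. In the main fit 11.4% of all genes were higher and 9.26% lower, so calls over all genes also fell in most of these settings. The causes were not tested.

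No pairing of the arrays by the replicate numbers in the labels was evident. The correlation of same-numbered arrays about their group means was 0.003, 0.08 and −0.13, and these values alone do not exclude pairing. With the replicate number as a block, 3531 probes were called, 8 matrix genes were higher and 8 lower, and 30 and 12 of the other matrix genes. COL1A1 and FBLN1 lost their call and LAMB1 passed. Median scaling over all probes, chosen after seeing the data, moved the median log2 fold change of all probes from −0.03 to −0.13. Probes near background limit the low-signal genes, such as COL3A1 and THBS2, whose log2 fold changes of −1.67 and −0.74 were −0.67 and −0.25 in the authors' normalized table.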
